A study of Caenorhabditis elegans with 30 samples.

Results

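The nlp genes of Caenorhabditis elegans encode neuropeptide-like proteins, precursors of secreted signalling peptides made mostly by neurons. The 70 genes described here are the rows of the deposited count table whose gene identifier carries a public name of nlp and a number, out of 46911 worm genes. The 8 epidermal genes nlp-27 to nlp-34, which encode antimicrobial peptides of the skin, were left out. A symbol table gave 63 of the 70 names, and RefSeq names of the same gene identifiers gave the other 7. The names nlp-37, nlp-38, nlp-44, nlp-54 and nlp-73 matched no row and were not analysed here. All 70 are protein-coding genes, and 63 had enough counts to be tested.

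Polyadenylated RNA came from pools of whole starved larvae held in arrest at the first larval stage (L1), which hatchlings enter when they find no food. The mutant, called irld here, is strain LRB444 and carries irld-39(duk1) together with irld-52(duk17). The wild type is N2. For each strain there were 5 times of arrest, 6, 12, 24, 48 and 72 h, counted from 12 h after the bleach that frees the embryos. Every strain and time was sampled as 3 biological replicates, which makes 10 groups and 30 libraries. All larvae were starved, so the time without food and the time since hatching cannot be told apart, and the labels do not say what either allele removes.

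A neuropeptide precursor is cut by a proprotein convertase, trimmed by a carboxypeptidase, often amidated, and stored in dense-core vesicles until release. The mature peptides act mainly on G protein-coupled receptors, at synapses and at a distance. The NLP class is held together by exclusion rather than by sequence, since it takes in the neuropeptides that are neither FMRFamide-like (flp genes) nor insulin-like. In worms, members are known to act in sleep, feeding, olfaction, egg laying, defecation and locomotion. What was measured here is the precursor transcript, not the peptide or its release.

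The libraries held 7563687 to 19815884 reads in worm genes (median 9650171). Levels are counts scaled to CPM, which gives a gene's counts in proportion to the library total, on library sizes adjusted by the trimmed mean of M values (TMM), given as mean ± SD with n = 3 libraries unless each library is shown. Log2 differences come from edgeR's quasi-likelihood fit over all 30 libraries and are given with their SE, and a gene was called when its Benjamini-Hochberg adjusted p over the 15508 tested genes was under 0.05. The mutated genes were too low to check the strain labels: irld-39 had 30 counts summed over 15 irld libraries and 38 over 15 N2 libraries, and irld-52 had 59 in irld and 82 in N2. In whole larvae, fewer cells of a type and less RNA per cell cannot be told apart.

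Libraries of 1 group differed in their balance of head and tail transcripts, and the levels of many nlp genes varied with this balance. The balance was measured as the mean log2 level of 9 genes known for expression in the head less that of 7 genes known for expression in the tail, lists that were written after the data were seen. It was -0.10 in irld 24 h replicate 3, against -2.50 and -2.20 in the other 24 h irld libraries. It was -2.60 in N2 48 h replicate 1, against -1.199 and -0.78 in its group, and -2.46 in N2 72 h replicate 1, against -1.11 and -1.08. These 3 libraries stood apart, so several results are given with and without them. Group means of the balance lay at -1.58 ± 0.40 at 72 h and -1.37 ± 0.29 at 6 h in irld, and at -1.55 ± 0.79 at 72 h and -1.40 ± 0.31 at 6 h in N2 (SD, n = 3). Single markers moved in opposite directions over these times, which such means hide. Of the head genes, daf-7 was called higher (log2 2.25 in irld and 2.67 in N2) and ceh-32 lower (-2.15 and -1.81). Of the tail genes, nob-1 was called higher (0.82 and 1.03) and cwn-1 lower in N2 (-0.75).

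Transcripts of the nlp genes rose over arrest in both strains when measured against all genes in the library. At 72 h against 6 h, 37 of the 63 tested genes were higher in irld and 3 were lower, where 20.6% and 26% of all tested genes were called higher and lower. In N2, 44 were higher and 5 were lower, where the shares of all tested genes were 23.1% and 27.9%. On the log2 scale the median change of the 63 was 1.02 in irld and 1.24 in N2, beside -0.13 and -0.11 for all tested genes. Every 72 h library lay above every 6 h library for 42 of the 63 genes in irld and for 46 in N2, and below for 5 and 4. Of all tested genes, 23.1% lay above and 28.9% below in this way in irld, and 27.1% and 34.5% in N2, while 46.6% and 51.1% were called in either direction. The direction is relative to the scaling: on ERCC spike-in, which was added according to total RNA and took 0.304% to 3.88% of a library's counted reads, the median of the nlp genes was -0.55 in irld and 0.98 in N2, beside -1.58 and -0.57 for all genes. There, 1 nlp gene was higher and 5 were lower in irld, and 3 were higher and 3 lower in N2. The ERCC share was uneven within groups. It was 0.304% in irld 6 h replicate 1, against 1.57% and 1.96% in its group. It was 0.441% in N2 72 h replicate 1, against 3.197% and 2.14% in its group. The part of this spread in the ERCC results given here was not tested. With library size alone, which put the median of all genes at -0.59 in irld and -0.63 in N2, the nlp medians were 0.57 and 0.72, and 26 were higher and 6 lower in irld, so that 81.2% of its calls were rises, beside 92.5% with TMM.

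Summed over the 70 genes, the nlp transcripts took 1700 ± 265 CPM at 6 h in irld, 1902 ± 297 at 12 h, 2767 ± 87.2 at 24 h, 3387 ± 303 at 48 h and 3866 ± 345 at 72 h. In N2 the sums were 1682 ± 34.9, 1797 ± 216, 2651 ± 441, 3509 ± 518 and 4248 ± 676 CPM at the same times. All 72 h libraries of both strains, at 3487 CPM or more, lay above all 24 h libraries, at 3132 CPM or less. No single gene carried the sum, since the 5 highest genes held 38.4% of it in irld at 72 h and 32.6% at 6 h, and 37.8% and 34.4% in N2.

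**Figure D1:**
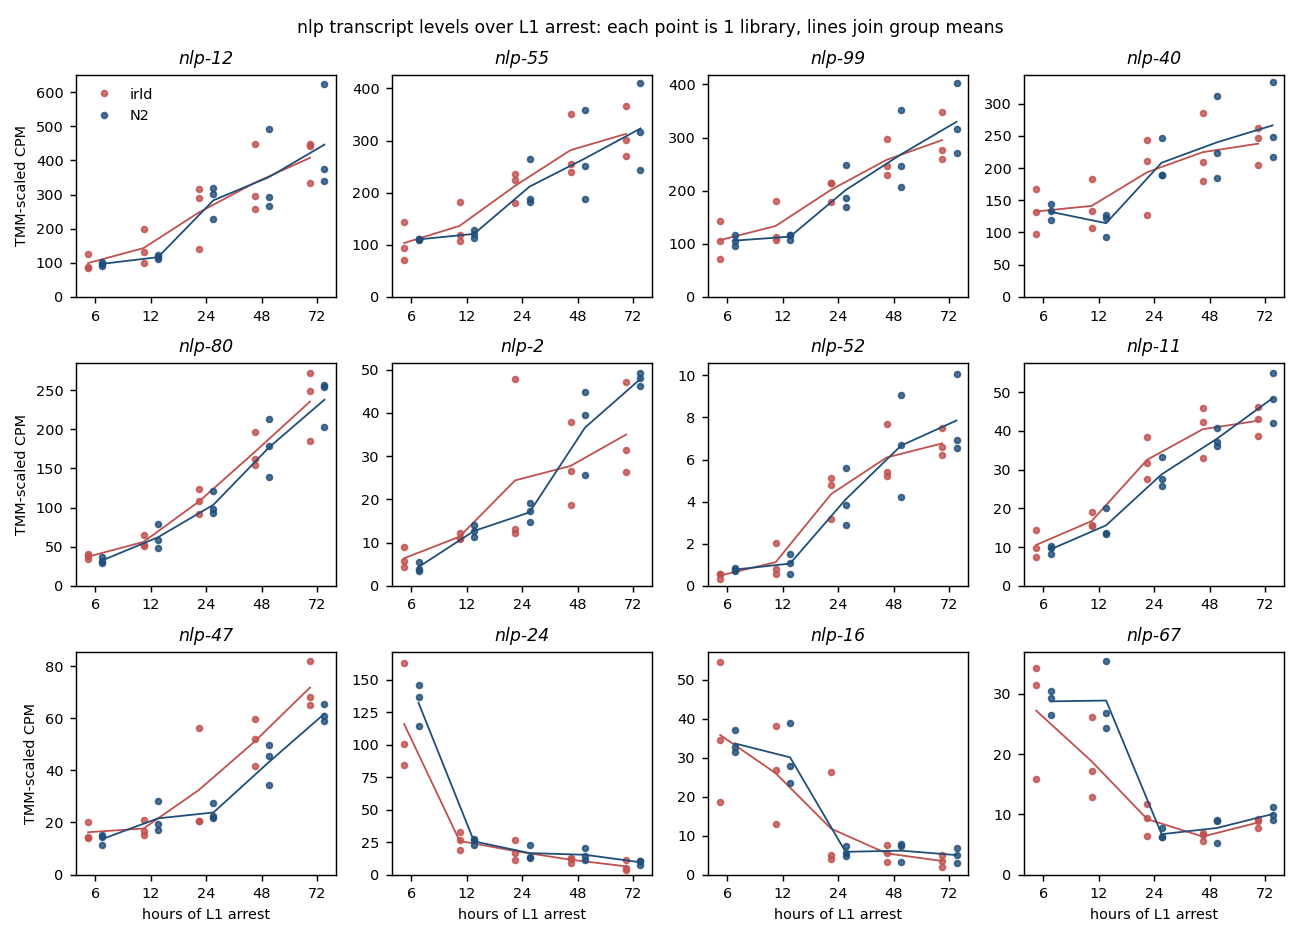
Levels of 12 nlp genes (TMM-scaled CPM, linear axes from 0) against hours of L1 arrest, with irld points left of N2 points, 1 point per library and lines through the group means. The first 9 genes climb to their highest group means at 72 h in both strains, whereas nlp-24, nlp-16 and nlp-67 are high at 6 h and low from 24 h on, except for irld 24 h replicate 3 of nlp-16 at 26.2 CPM.

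Of the 4 tested genes known for sleep and arousal, 3 rose in irld and 4 in N2, with medians of 1.31 and 1.46. On ERCC scaling, however, the medians were -0.21 in irld and 1.01 in N2, and none of the 4 was called in either strain. nlp-11, whose peptide is released by the sleep-active neuron RIS, had 14.4, 9.68 and 7.53 CPM at 6 h in irld, 15.8, 19.1 and 15.3 at 12 h, 27.5, 31.6 and 38.5 at 24 h, 32.98, 42.3 and 45.9 at 48 h, then 43.0, 38.8 and 46.1 at 72 h. In N2 it had 9.73, 8.30 and 10.1 CPM at 6 h, 20.0, 13.3 and 13.6 at 12 h, 33.1, 25.6 and 27.5 at 24 h, 37.1, 40.7 and 36.2 at 48 h, then 55.0, 48.2 and 42.05 at 72 h. From 12 h on, no library of either strain overlapped the 6 h libraries of its own strain. The log2 change at 72 h was 2.02 ± 0.20 in irld (edgeR adjusted p = 1.46e-08) and 2.37 ± 0.21 in N2 (adjusted p = 9.72e-10).

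nlp-8 and nlp-14, both known to act from the neuron ALA in sleep after cellular stress, started higher and rose less. nlp-8 averaged 219 ± 29.4 CPM at 72 h and 86.5 ± 13.7 at 6 h in irld (log2 1.34 ± 0.23, adjusted p = 3.94e-05), and 223 ± 80.9 and 86.1 ± 3.39 in N2 (1.37 ± 0.23, adjusted p = 2.34e-05). nlp-14 changed by 0.66 ± 0.16 in irld (adjusted p = 0.00128) and by 0.91 ± 0.16 in N2 (adjusted p = 3.03e-05). Both genes had no overlap between the 72 h and the 6 h libraries of a strain. The irld call of nlp-14 was lost with library size alone (0.20, adjusted p = 0.204). nlp-22, a sleep-promoting peptide gene of the interneuron RIA that is known to cycle with the larval molts, was near 0: it had 12 counts summed over the irld libraries and 19 over the N2 libraries, with at most 5 in a library, and was not tested.

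nlp-49, whose peptide acts on the receptor SEB-3 in arousal and locomotion, was the most uneven of this group. At 72 h it had 236, 184 and 178 CPM in irld and 107, 291 and 318 CPM in N2, and at 6 h it had 130, 53.99 and 62.4 CPM in irld and 98.5, 68.7 and 77.6 CPM in N2. The log2 change was 1.28 ± 0.58 in irld, which was not called (adjusted p = 0.0764), and 1.55 ± 0.59 in N2 (adjusted p = 0.0315). In N2 the call was lost without any 1 of N2 6 h replicate 2 (1.49, adjusted p = 0.0853) or 3 (1.57, 0.0702) or N2 72 h replicate 2 (1.38, 0.0848) or 3 (1.29, 0.104), and with library size alone (1.05, 0.132). In irld it was gained without irld 6 h replicate 1 (1.78, adjusted p = 0.0349) and without the 3 libraries that stood apart (1.28, adjusted p = 0.0085).

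There were 7 genes for peptides of sensory signalling, feeding, egg laying and gut function. Of these, 6 rose in N2, 5 of the 6 were called in irld, and nlp-24 fell. On ERCC scaling the median of the 7 was -0.74 in irld and 1.08 in N2, beside 0.88 and 1.23 with TMM. There, nlp-24 was the single call in both strains. nlp-7, known to restrain egg laying in adults, averaged 56.7 ± 13.5 CPM at 72 h and 12.2 ± 0.61 at 6 h in irld (log2 2.21 ± 0.22, adjusted p = 9.96e-09), and 62.0 ± 11.7 and 11.5 ± 0.80 in N2 (2.43 ± 0.22, adjusted p = 1.79e-09). nlp-9 changed by 1.67 ± 0.17 in irld (adjusted p = 1.77e-08) and by 1.84 ± 0.17 in N2 (adjusted p = 2.75e-09), with small spread: 28.1, 25.8 and 37.7 CPM at 72 h in irld against 10.97, 7.91 and 9.90 at 6 h. These 2 genes had no overlap between 72 h and 6 h in either strain.

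nlp-1, made by the olfactory neuron AWC to act on the receptor NPR-11, rose by 0.88 ± 0.24 in irld (adjusted p = 0.00427) and 1.23 ± 0.24 in N2 (adjusted p = 0.000157). nlp-3, an egg-laying peptide gene, rose by 1.54 ± 0.49 in irld (adjusted p = 0.0128) and 1.81 ± 0.49 in N2 (adjusted p = 0.00395), though the irld call was at the threshold without irld 6 h replicate 3 (1.45, adjusted p = 0.0501). nlp-40 encodes the intestinal peptide that times the defecation motor program through the receptor AEX-2. It had 205, 247 and 261 CPM at 72 h in irld against 167, 98.1 and 132 at 6 h (0.84 ± 0.25, adjusted p = 0.00747), and 333, 248 and 217 CPM in N2 against 119.1, 144 and 133 (1.01 ± 0.25, adjusted p = 0.00158). The libraries did not overlap in either strain. On library size alone nlp-40 was not called (0.39, adjusted p = 0.128 in irld, and 0.48, adjusted p = 0.0642 in N2). nlp-20 stood at 0.80 ± 0.36 in irld (adjusted p = 0.0703) and 1.06 ± 0.36 in N2 (adjusted p = 0.017). Without N2 72 h replicate 1, the highest at 104.2 CPM, the N2 change was 0.65 (adjusted p = 0.160). Without irld 6 h replicate 1 the irld change was 1.10 (adjusted p = 0.0284). Without the 3 libraries that stood apart, nlp-20 was called in irld (0.80, adjusted p = 0.0143) and not in N2 (0.65, adjusted p = 0.0693). With the replicate number as a block it was called in irld (0.86, adjusted p = 0.0419). With library size alone the N2 call of nlp-20 was lost (0.51, adjusted p = 0.184), and so were the irld calls of nlp-1 (0.42, 0.0791) and nlp-3 (1.09, 0.0697).

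nlp-24 took the opposite course and did so early. It encodes peptides known to promote feeding behaviour in starved worms through the opioid-like receptor NPR-17. In irld it had 84.2, 100 and 163 CPM at 6 h, 32.6, 18.7 and 26.4 at 12 h, 16.7, 26.6 and 10.8 at 24 h, 9.23, 12.1 and 12.9 at 48 h, then 4.79, 3.11 and 10.98 at 72 h. In N2 it had 136, 146 and 114 CPM at 6 h, 27.7, 22.6 and 26.3 at 12 h, 13.7, 13.05 and 22.8 at 24 h, 13.9, 10.9 and 20.7 at 48 h, then 7.70, 10.2 and 10.4 at 72 h. Every library from 12 h on was below every 6 h library of its strain. At 12 h the log2 change was -2.16 ± 0.35 in irld (adjusted p = 0.0013) and -2.37 ± 0.36 in N2 (adjusted p = 0.000472), and at 72 h it was -4.20 ± 0.40 in irld (adjusted p = 1.04e-08) and -3.80 ± 0.39 in N2 (adjusted p = 2.42e-08). At 72 h it held 0.163% of the summed nlp transcripts in irld and 0.229% in N2, against 6.95% and 7.86% at 6 h, when it was the highest nlp gene in N2. The exons of nlp-24 (V 11616376 to 11616828, plus strand, WBcel235) overlap glb-15, a globin gene on the other strand, and whether the counting used strand is not given in the sources used here.

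The other called falls were those of nlp-16 and nlp-67 in both strains and of nlp-25 and nlp-26 in N2. nlp-16 had 18.6, 34.4 and 54.4 CPM at 6 h in irld and 3.37, 2.03 and 5.01 at 72 h, and its 24 h libraries had 4.05, 5.05 and 26.2. In N2 it had 31.3, 32.6 and 36.998 CPM at 6 h, 5.48, 7.30 and 4.70 at 24 h, then 3.08, 5.10 and 6.79 at 72 h. It held near its 6 h level at 12 h (26.01 ± 12.6 CPM in irld and 30.1 ± 8.02 in N2) and was down by 24 h in all but 1 library. The change at 72 h was -3.36 ± 0.61 in irld (adjusted p = 9.13e-05) and -2.74 ± 0.58 in N2 (adjusted p = 0.000444).

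nlp-67 fell by 1.66 ± 0.27 in irld (adjusted p = 1.96e-05) and by 1.52 ± 0.27 in N2 (adjusted p = 4.31e-05), with its low point of 6.31 ± 0.655 CPM at 48 h in irld and of 6.70 ± 0.910 CPM at 24 h in N2. nlp-25 and nlp-26 lie 5042 bp apart on chromosome V and were both low. nlp-26 averaged 3.01 ± 1.46 CPM at 72 h and 6.21 ± 3.25 at 6 h in irld (-1.04 ± 0.51, adjusted p = 0.0958), and 1.74 ± 1.247 and 4.94 ± 3.21 in N2 (-1.47 ± 0.54, adjusted p = 0.0247). The N2 call of nlp-26 was lost without N2 6 h replicate 3 (-0.80, adjusted p = 0.248), N2 72 h replicate 1 (-1.15, 0.114) or N2 72 h replicate 2 (-1.26, 0.0967), and the change was called in irld without irld 6 h replicate 1 (-1.33, 0.0415) or irld 72 h replicate 2 (-1.50, 0.0457). nlp-25 had 4 counts at 72 h and 25 at 6 h in irld, a ratio of 0.261 with an exact 95% counting interval of 0.066 to 0.756, and 1 count at 72 h and 44 at 6 h in N2, a ratio of 0.0424 (0.00105 to 0.249). These intervals pool the counts of a group and leave out the spread between its libraries. That spread was large: the 6 h counts were 10, 13 and 2 in irld and 2, 31 and 11 in N2. In the edgeR test, which uses the spread, the nlp-25 change was called in N2 alone (adjusted p = 0.0148). It was not called without N2 6 h replicate 2 (adjusted p = 0.0652) or N2 72 h replicate 1 (0.0519) or 2 (0.058).

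Of 6 tested members of peptide families shared with other animals, 4 rose in irld and 5 in N2, with medians of 2.09 and 2.19, which stayed positive on ERCC scaling (0.37 and 1.92). They include the highest level and, in N2, the largest rise. nlp-12, a cholecystokinin-like gene of the tail neuron DVA whose peptides act on the receptors CKR-1 and CKR-2 in locomotion, had the highest level per length of all nlp genes, at 574 CPM per kb of exon averaged over 30 libraries. In irld it had 125, 85.1 and 87.9 CPM at 6 h, 289, 315 and 139 at 24 h, then 335, 441 and 447 at 72 h. In N2 it had 103, 92.0 and 96.2 CPM at 6 h, 319, 229 and 302 at 24 h, then 625, 374 and 340 at 72 h. The 24 h and 72 h libraries all lay above those at 6 h. The change at 72 h was 2.04 ± 0.31 in irld (adjusted p = 7.31e-06) and 2.20 ± 0.31 in N2 (adjusted p = 2.21e-06), and it made up 10.5% of the summed nlp transcripts in irld and 10.3% in N2.

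nlp-2 is one of the RPamide genes, which resemble gonadotropin-releasing hormone and adipokinetic hormone and are known to act in sleep and wakefulness. It had 31.5, 26.3 and 47.1 CPM at 72 h in irld against 8.99, 5.68 and 4.41 at 6 h, and 48.2, 46.3 and 49.2 CPM in N2 against 5.59, 3.52 and 3.89. No library overlapped between the times, and the fitted change was 5.52-fold in irld (log2 2.46 ± 0.40, adjusted p = 2.02e-05) and 11.1-fold in N2 (3.47 ± 0.41, adjusted p = 2.75e-07). The irld 24 h libraries were uneven, at 12.3, 13.1 and 47.8 CPM. nlp-23, another RPamide gene 988 bp from nlp-2 on the X chromosome, had 10, 13 and 15 counts at 72 h in irld against 5, 3 and 3 at 6 h (2.43 ± 0.70, adjusted p = 0.00611). In N2 it had 15, 8 and 6 counts at 72 h against 3, 15 and 0 at 6 h, in libraries of unlike depth. Scaled for depth, these were 2.10, 0.97 and 0.70 CPM against 0.25, 0.65 and 0, which do not overlap. The edgeR call in N2 (1.79 ± 0.68, adjusted p = 0.0304) was lost without N2 6 h replicate 1 (1.70, adjusted p = 0.0723), N2 6 h replicate 3 (1.41, 0.0863) or N2 72 h replicate 1 (1.23, 0.196). It was also lost with library size alone (1.29, 0.102). The irld call of nlp-23 was lost without the libraries numbered 2 (2.34, edgeR adjusted p = 0.0679).

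nlp-47, whose product is the worm peptide most like adipokinetic and gonadotropin-releasing hormone and which acts on the receptor GNRR-1, was first called higher at 24 h in both strains. It averaged 16.2 ± 3.43 CPM at 6 h, 17.7 ± 2.95 at 12 h, 32.5 ± 20.6 at 24 h, 51.0 ± 9.03 at 48 h and 71.8 ± 8.84 at 72 h in irld, and 13.7 ± 2.04, 21.6 ± 6.00, 23.8 ± 3.02, 43.2 ± 7.98 and 61.8 ± 3.53 in N2. The irld 24 h libraries of nlp-47 were uneven, at 20.7, 20.6 and 56.3 CPM against 20.2, 14.4 and 14.2 at 6 h. The highest was replicate 3, 1 of the 3 libraries that stood apart, and the 24 h call without it is not given here. The nlp-47 change at 72 h was 2.14 ± 0.28 in irld (edgeR adjusted p = 1.18e-06) and 2.18 ± 0.29 in N2 (adjusted p = 8.11e-07). The tachykinin-like gene nlp-58 was not called in either strain, at -0.73 ± 0.40 in irld (adjusted p = 0.140) and 0.00 ± 0.40 in N2 (adjusted p = 0.995), though without the 3 libraries that stood apart it was called lower in irld (-0.73, adjusted p = 0.0469). Scaling by library size alone put nlp-58 and nlp-26 among the genes called lower in irld (adjusted p = 0.0238 and 0.0171). nlp-46 rose in N2 (2.20 ± 0.52, adjusted p = 0.00108) and stood at 0.64 ± 0.51 in irld (adjusted p = 0.317), on 8, 8 and 6 counts at 72 h and 4, 10 and 9 at 6 h in irld, then 9, 8 and 18 at 72 h and 4, 8 and 2 at 6 h in N2. Scaled for depth, nlp-46 had 1.26, 0.97 and 2.11 CPM at 72 h in N2 against 0.34, 0.35 and 0.20 at 6 h, without overlap. In irld it had 1.04, 0.96 and 0.72 CPM against 0.33, 0.77 and 0.61, with overlap. Exons of nlp-46 overlap a gene on the other strand.

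Among the steepest risers were genes for which no function is given here. nlp-80 (V 11064954 to 11065613) had 37.5, 33.7 and 40.2 CPM at 6 h in irld, 52.6, 64.9 and 50.9 at 12 h, 91.9, 108.2 and 123 at 24 h, 154, 196 and 163 at 48 h, then 185, 272 and 250 at 72 h. In N2 it had 28.9, 32.02 and 36.7 CPM, then 79.2, 57.9 and 48.8, 121, 92.4 and 97.9, 179, 213 and 139, and 256, 255 and 203 at the same times. It was higher at each successive time with no overlap between 6, 12, 24 and 48 h in either strain, and its change at 72 h had the smallest adjusted p of the nlp genes (2.66 ± 0.20, 8.85e-11 in irld and 2.87 ± 0.20, 2.22e-11 in N2).

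nlp-52 (III 761776 to 762439) was low and rose steeply, with 7.51, 6.58 and 6.21 CPM at 72 h in irld against 0.577, 0.538 and 0.339 at 6 h, and 10.1, 6.92 and 6.56 CPM in N2 against 0.846, 0.739 and 0.717. Its fitted change was 13.8-fold in irld (3.78 ± 0.42, adjusted p = 7.55e-08) and 10.1-fold in N2 (3.33 ± 0.40, adjusted p = 1.75e-07). nlp-59 rose by 2.40 ± 0.18 in irld (adjusted p = 1.03e-10) and 2.37 ± 0.18 in N2 (adjusted p = 1.01e-10). nlp-56, whose exons overlap a gene on the other strand, rose by 1.55 ± 0.40 in irld and 2.32 ± 0.41 in N2, and nlp-19 rose by 1.99 ± 0.38 in irld and 2.22 ± 0.38 in N2.

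Levels per length spanned a wide range. After nlp-12, the highest means over 30 libraries were those of nlp-55 (406 CPM per kb), nlp-99 (297), nlp-40 (265), nlp-49 (259), nlp-80 (229), nlp-8 (172), nlp-21 (153), nlp-61 (148) and nlp-13 (140). These 10 genes all had fitted rises at 72 h, called in irld for 9 of them (not for nlp-49) and in N2 for 10. The ranking used all 30 libraries, those at 72 h included, which favours genes that rise, so these counts are not independent of it. Among all tested genes, 20.6% were called higher in irld and 23.1% in N2. nlp-55 had 271, 367 and 301 CPM at 72 h in irld against 145, 71.8 and 93.9 at 6 h (1.60 ± 0.26, adjusted p = 1.64e-05), and 410, 317 and 243 CPM in N2 against 109, 111 and 111 (1.55 ± 0.26, adjusted p = 1.93e-05), with no overlap. Exons of nlp-99 overlap nep-2, a neprilysin peptidase gene on the same strand, and those of nlp-21 overlap subs-4 on the other strand, so reads may be shared. The irld call of nlp-21 (0.62 ± 0.21, adjusted p = 0.0186, and 1.201 ± 0.22, 5.07e-05 in N2) was lost without irld 72 h replicate 1 (0.56, adjusted p = 0.063) or 3 (0.32, 0.23), and with library size alone (0.16, 0.532). Among the 63 tested genes, 48 were above 7.27 CPM per kb, the median of tested protein-coding genes. In all, 16 of the 70 have exons that overlap another gene, 12 on the other strand and 4 on the same strand.

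The nlp genes lie more often on the X chromosome than other protein-coding genes do, with 22 of 70 (31.4%) there against 13.7% of all protein-coding genes. A run of nlp-45, nlp-22, nlp-23 and nlp-2 stands within gaps of 3049, 302 and 988 bp on X. Of these neighbours, nlp-2 and nlp-23 were called higher in both strains, nlp-23 on at most 15 counts in a library. nlp-22 was near 0, and nlp-45 stood at -0.07 ± 0.89 in irld and 0.06 ± 0.90 in N2. The 7 genes too low to be tested were nlp-4, nlp-22, nlp-39, nlp-60, nlp-78, nlp-90 and nlp-119, with 79, 31, 14, 197, 50, 4 and 11 counts summed over 30 libraries.

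**Figure D2:**
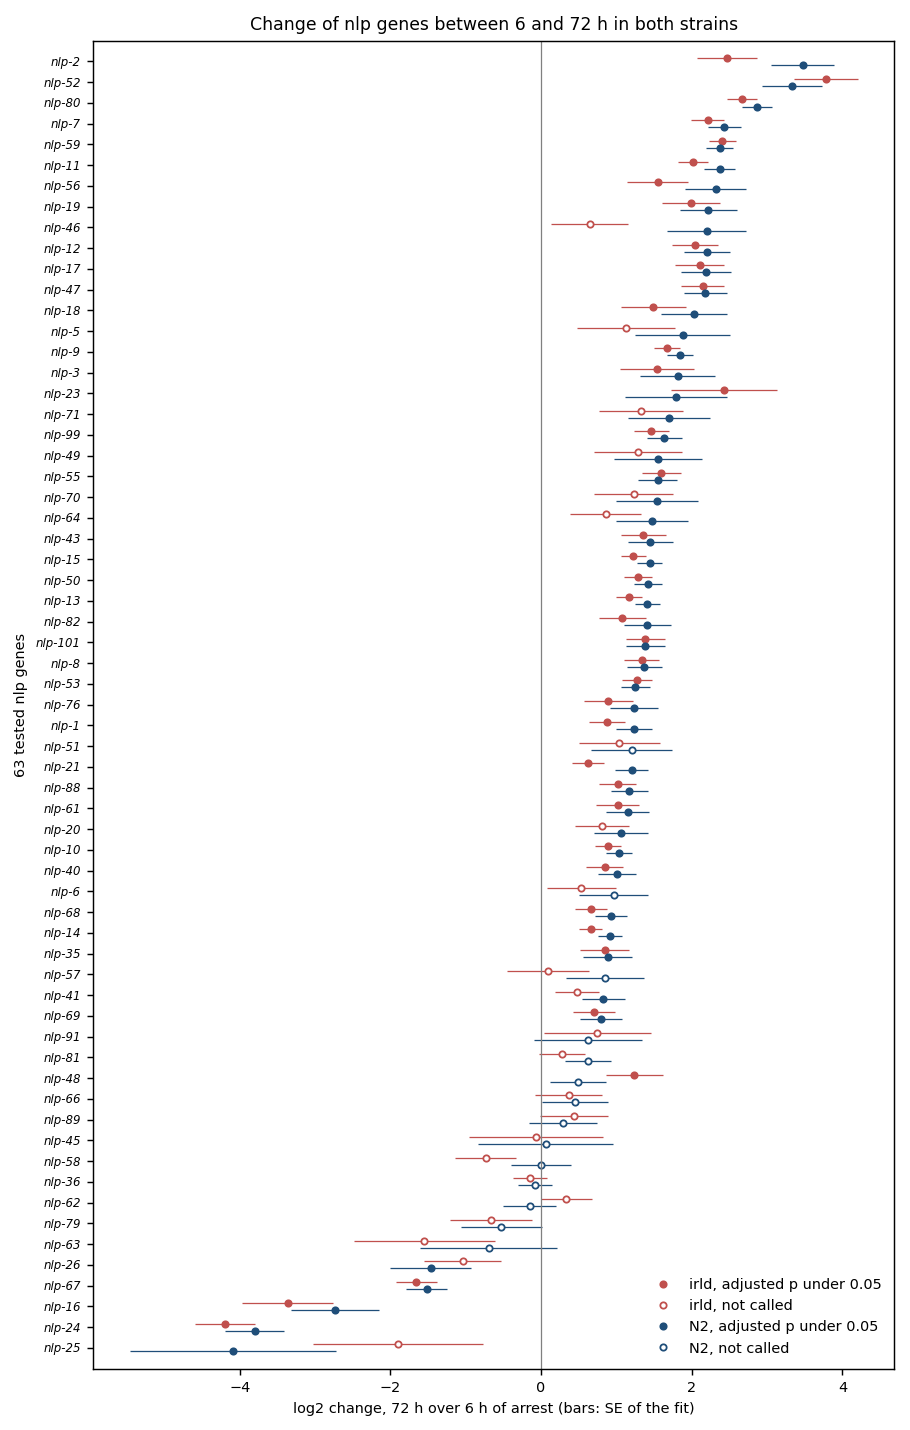
Log2 change of the 63 tested nlp genes at 72 h over 6 h of arrest, irld above N2 in each row and rows sorted by the N2 change. Bars are the SE of the edgeR fit and filled points were called. With TMM scaling most points lie right of 0, with medians of 1.02 in irld and 1.24 in N2. On ERCC scaling the irld median is -0.55 and the N2 median is above 0. The falls called with TMM are those of nlp-24, nlp-16 and nlp-67 in both strains, with nlp-26 and nlp-25 in N2.

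The rise came mainly after 12 h. At 12 h, irld had 0 higher and 1 lower nlp gene, nlp-24, where 4.34% of all tested genes were called, 1.92% higher and 2.42% lower. N2 had 4 higher (nlp-2, nlp-9, nlp-11 and nlp-80) and 2 lower (nlp-24 and nlp-26), where 6.21% were called, 2.66% higher and 3.55% lower. The 4 genes also had positive changes in irld (0.84 ± 0.39 for nlp-2, 0.53 ± 0.17 for nlp-9, 0.67 ± 0.20 for nlp-11 and 0.60 ± 0.19 for nlp-80), at adjusted p of 0.0573 to 0.249. These counts rested on single libraries: N2 gave 3 calls without N2 6 h replicate 2 and 2 without N2 12 h replicate 1, and 10 without the 3 libraries that stood apart. Irld gave 6, with 3 higher and 3 lower, without irld 6 h replicate 1. DESeq2 gave 3 higher and 1 lower in irld at 12 h.

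By 24 h, 23 were higher and 4 lower in irld (30.6% of all tested genes called, 14.1% and 16.5% by direction), and 24 were higher and 4 lower in N2 (34.2%, 15.9% and 18.3%). The 4 falls were the same genes in both strains, nlp-16, nlp-24, nlp-26 and nlp-67. At 48 h, 34 were higher and 3 lower in irld (42%, 18.1% and 23.9%), and 38 and 3 in N2 (45.6%, 20.0% and 25.6%). On ERCC scaling these counts turned to 0 higher and 2 lower in irld and 0 and 4 in N2 at 24 h, and to 0 and 7 in irld and 0 and 3 in N2 at 48 h. With library size alone the N2 split at 24 h was 15 higher and 7 lower, and the irld split at 48 h was 22 and 5. Between 24 and 72 h, 6 more rises and 1 fall were called in irld (6.90%, 3.94% and 2.96%), and 17 rises and 0 falls in N2 (9.89%, 5.75% and 4.14%). With library size alone the irld split was 2 and 2. The rises called in irld were those of nlp-47, nlp-59, nlp-80, nlp-7, nlp-53 and nlp-15, and the fall was that of nlp-24 (-1.52). The late count rested on single libraries. In N2 it was 4 without N2 24 h replicate 2, 9 without N2 24 h replicate 3, and 7 and 9 without N2 72 h replicates 1 and 2. In irld it was 4 and 3 without irld 24 h replicates 1 and 2, and 4 and 3 without irld 72 h replicates 1 and 2.

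The group mean was highest at 72 h for 41 of the 63 genes in irld and 48 in N2, and at 6 h for 9 and 7. It was higher at each successive time for 32 genes in irld and 24 in N2. The same counts over all tested genes were not made, so no share stands beside these. Some nlp genes peaked in the middle instead. nlp-69, named after its values were seen, had its highest group mean at 24 h in both strains, at 57.8 CPM in irld and 61.0 in N2, against 47.3 and 50.4 at 72 h.

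The strain comparison asked whether the irld mutant differed from N2 in these levels. No nlp gene was called in any strain comparison: 0 of 63 in the mean over the 5 times, at 6, 12, 24, 48 or 72 h, in the interaction of strain and time, or in the difference of the changes from 6 to 72 h, and 0% of all tested genes were called in each. At an unadjusted p under 0.05 there were 2 nlp genes in the mean over times, where 5.40% of all tested genes were, 0 at 6 h (1.10%), 2 at 12 h (1.48%), 0 at 24 h (2.22%), 0 at 48 h (2.75%) and 1 at 72 h (2.88%). There was 1 in the difference of changes (1.95%), nlp-46, and 0 in the interaction (0.767%). The 2 at 12 h were nlp-46 (-1.37 ± 0.56) and nlp-67 (-0.63 ± 0.26), and the 1 at 72 h was nlp-21 (-0.53 ± 0.21). DESeq2 and limma-voom also called 0 nlp genes in each.

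For the mean over times, the differences, irld minus N2, ran from -0.38 to 0.50 with a median of 0.00, and the 95% interval lay within a 2-fold change for 61 of the 63 genes. nlp-26 was at 0.50 ± 0.24 (edgeR adjusted p = 0.924) and nlp-62 at 0.32 ± 0.16 (adjusted p = 0.924), the 2 that passed unadjusted. Both are low genes: nlp-26 had 2.46, 4.66 and 1.91 CPM in irld and 0.84, 1.21 and 3.16 CPM in N2 at 72 h, and nlp-62 had 2.85, 4.31 and 4.66 CPM in irld and 2.24, 3.28 and 2.69 CPM in N2, with overlap in both. The next smallest p were those of nlp-21 (-0.15 ± 0.10), nlp-57 (-0.35 ± 0.24) and nlp-17 (0.21 ± 0.14). Abundant genes differed in how closely they were placed: nlp-12 was at -0.01 with a 95% interval of 0.27 to either side, nlp-80 at 0.01 with 0.17 and nlp-14 at 0.01 with 0.14, whereas nlp-49 was at -0.01 with 0.53.

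**Figure D3:**
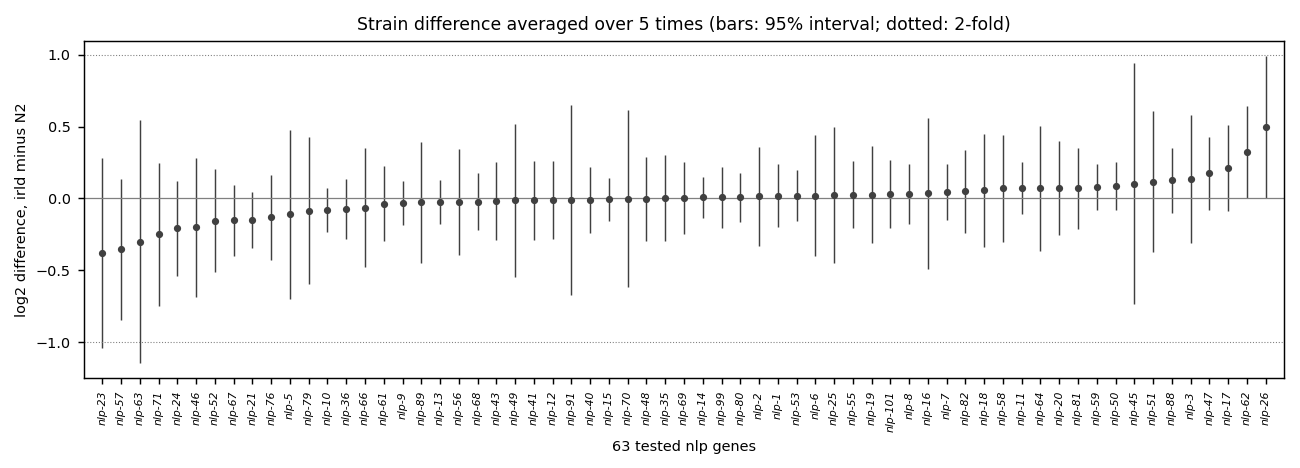
Log2 difference, irld minus N2, averaged over the 5 times for each of the 63 tested nlp genes, with its 95% interval and dotted lines at a 2-fold change. Points run from -0.38 to 0.50, 0 of them were called, and 61 of the intervals stay inside the dotted lines.

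Estimates were wider within a time and for the change over arrest. The median 95% interval reached 0.65 to 0.67 to either side at the 5 times taken alone and 0.93 for the change, where it lay within 2-fold for 25 of the 63 genes. That difference, irld minus N2, was most clear of 0 for nlp-46 (-1.56 ± 0.73), nlp-21 (-0.58 ± 0.30) and nlp-2 (-1.01 ± 0.55), followed by nlp-48 (0.74 ± 0.53) and nlp-56 (-0.77 ± 0.57), with an edgeR adjusted p of 1 for each. For nlp-21 the 72 h libraries had 145, 72.1 and 185 CPM in irld and 230, 184 and 167 CPM in N2, and at 6 h both strains lay between 82.2 and 87.3 CPM. In the interaction the genes ranked nlp-46, nlp-67, nlp-2, nlp-50 and nlp-13, again with an adjusted p of 1 for each.

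The changes over arrest were called in 36 genes as rises in both strains and in 3 as falls in both (nlp-24, nlp-16 and nlp-67). A further 10 were called in N2 alone and 1, nlp-48, in irld alone (1.24 ± 0.38, adjusted p = 0.00862, and 0.49 ± 0.37, adjusted p = 0.277 in N2). The irld call of nlp-48 was lost with library size alone (0.76, adjusted p = 0.108), without the libraries numbered 1 (1.19, 0.0537) and without those numbered 2 (1.15, 0.104). A call in 1 strain is not a difference between strains, and 0 of these passed the test of that difference. Of the 36 shared rises, 31 were larger in N2 than in irld in the fit. These genes share the same libraries and scaling, so they are not independent, and 0 were called in the difference of changes. The fitted changes had the same sign for 61 of the 63 genes. These counts were made for the nlp genes alone, and the shares over all tested genes are not given here.

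Within groups, the nlp genes followed the balance of head and tail transcripts in opposite directions. In irld 24 h replicate 3, the library with most head transcripts for its group, nlp-49 stood at 386 CPM, against 68.2 and 90.9 in the other 2 libraries, and nlp-12 at 139, against 289 and 315. In N2 72 h replicate 1, with few head transcripts, nlp-49 stood at 107 CPM, against 291 and 318, and nlp-12 at 625, against 374 and 340. Over 30 libraries, each taken as its deviation from its group mean, the balance and the level had Pearson's r of 0.81 for nlp-49 and 0.89 for nlp-35, and of -0.90 for nlp-12 and -0.92 for nlp-17 (Spearman's rho 0.74, 0.85, -0.84 and -0.87). Without the 2 libraries farthest from the median balance, r was 0.71, 0.84, -0.85 and -0.88. These values describe libraries that share depth, scaling and group means, and nlp-35 and nlp-17 were chosen after their values were seen.

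Beyond 0.5 in either direction lay 46 of the 63 genes (73%), 23 positive and 23 negative, against 16.1% of all tested genes. Positive ones included nlp-3, nlp-16, nlp-2, nlp-47 and nlp-58, and negative ones nlp-1, nlp-7, nlp-20, nlp-40, nlp-52 and nlp-55. nlp-24 (-0.12), nlp-80 (0.14), nlp-11 (0.17) and nlp-9 (0.19) stood near 0. With the balance as a term in the fit, an alternative chosen after seeing the data, 44 nlp genes were higher and 3 lower at 72 h in irld, and 46 were higher and 5 lower in N2. Without the 3 libraries that stood apart, 42 were higher and 4 lower in irld, and 43 and 3 in N2.

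**Figure D4:**
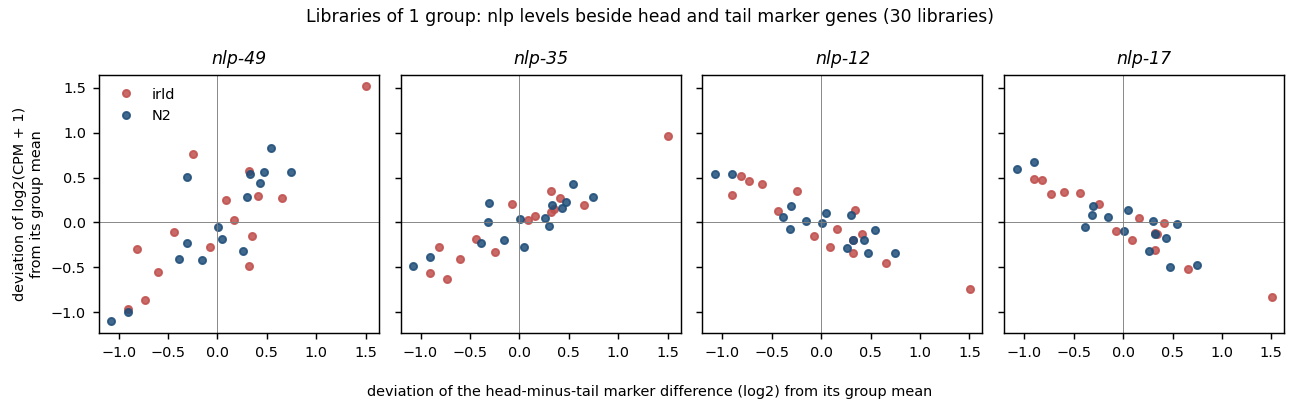
Deviation of log2(CPM + 1) from its group mean for 4 nlp genes, against the deviation of the head-minus-tail marker difference from its group mean, in log2 units, 1 point per library (30 libraries, irld and N2). nlp-49 and nlp-35 climb with the marker difference (r of 0.81 and 0.89) and nlp-12 and nlp-17 decline with it (-0.90 and -0.92); the point at the far right of each panel is irld 24 h replicate 3.

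Genes that process and release neuropeptides rose together with the nlp genes in part. Of 20 listed, 9 were higher and 3 lower at 72 h in irld, and 12 and 3 in N2, with medians of 0.36 and 0.61. Of all tested genes, 20.6% were called higher in irld and 23.1% in N2, and 46.6% and 51.1% in either direction. On ERCC scaling the medians of the 20 were -1.12 in irld and 0.19 in N2, and 0 rises were called in either strain. With library size alone the medians were -0.10 in irld and 0.088 in N2, with 7 higher and 6 lower in irld, and 9 and 7 in N2. egl-3, the proprotein convertase that cuts most neuropeptide precursors, rose by 1.86 ± 0.22 in irld (adjusted p = 2.25e-07) and 2.07 ± 0.22 in N2 (adjusted p = 3.96e-08). egl-21, the carboxypeptidase that acts next, rose by 1.79 ± 0.16 in irld (adjusted p = 3.20e-09) and 2.01 ± 0.17 in N2 (adjusted p = 4.60e-10). ida-1, a dense-core vesicle membrane protein gene, rose by 1.40 ± 0.16 in irld and 1.55 ± 0.16 in N2, and sbt-1, the chaperone gene of the convertase, by 1.33 ± 0.17 and 1.63 ± 0.18. The 3 falls in both strains, named after their values were seen, were bli-4 (-0.81 ± 0.21 in irld and -1.03 ± 0.21 in N2), a convertase gene also needed for the cuticle, pamn-1 (-0.79 ± 0.18 and -0.97 ± 0.18), an amidating enzyme gene, and cpd-2 (-0.94 ± 0.19 and -1.14 ± 0.19), a carboxypeptidase gene.

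Of 11 receptor genes known for nlp peptides, 1 was higher and 1 lower in irld, and 3 and 1 in N2, with medians of 0.48 and 0.32 that were -1.04 and -0.10 on ERCC scaling, and 0.01 and -0.19 with library size alone, where 0 were higher and 2 lower in both strains. With TMM, the called share of these receptors lay below that of all tested genes, 46.6% in irld and 51.1% in N2. pdfr-1, a receptor gene for pigment-dispersing-factor-like peptides, rose by 0.58 ± 0.22 in irld (adjusted p = 0.0300) and 0.59 ± 0.22 in N2 (adjusted p = 0.0256). trhr-1, a thyrotropin-releasing-hormone-like receptor gene, fell by 1.87 ± 0.39 in irld (adjusted p = 0.000361) and by 1.49 ± 0.39 in N2 (adjusted p = 0.00259). ckr-1 stood at 0.65 ± 0.42 in irld (adjusted p = 0.211) and rose by 1.17 ± 0.43 in N2 (adjusted p = 0.0244), and gnrr-1 stood at 0.60 ± 0.29 (adjusted p = 0.0908) and rose by 0.77 ± 0.29 (adjusted p = 0.0293). npr-17, the receptor gene of the nlp-24 peptides, was not called (-0.09 ± 0.30 in irld and 0.11 ± 0.31 in N2).

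Of 15 markers shared by all neurons, 4 were higher and 6 lower at 72 h in irld, and 4 and 5 in N2, with medians of -0.32 and -0.22, and 1 was higher and 10 lower in both strains with library size alone. Of all tested genes, 46.6% in irld and 51.1% in N2 were called in either direction with TMM. The summed level of the 15 markers ran from 1575 to 1624 CPM at 72 h and 1602 to 1760 at 6 h in irld, and from 1556 to 1808 and 1673 to 1829 in N2. unc-18, a synaptic vesicle fusion gene, fell by 1.14 ± 0.14 in irld and 1.15 ± 0.14 in N2, unc-64 (syntaxin) by 0.70 ± 0.10 and 0.62 ± 0.10, and rab-3 by 0.79 ± 0.18 and 0.91 ± 0.18, whereas unc-13 rose by 1.02 ± 0.17 and 1.04 ± 0.17. The 31 flp genes, of which 30 were tested, had 25 higher and 0 lower in irld, with a median of 1.55, and 28 and 0 in N2, with a median of 1.76, though on ERCC scaling the medians were -0.13 and 1.28 and 0 were called. The 8 epidermal nlp genes had 0 higher and 8 lower in both strains, with medians of -3.20 in irld and -3.24 in N2.

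**Figure D5:**
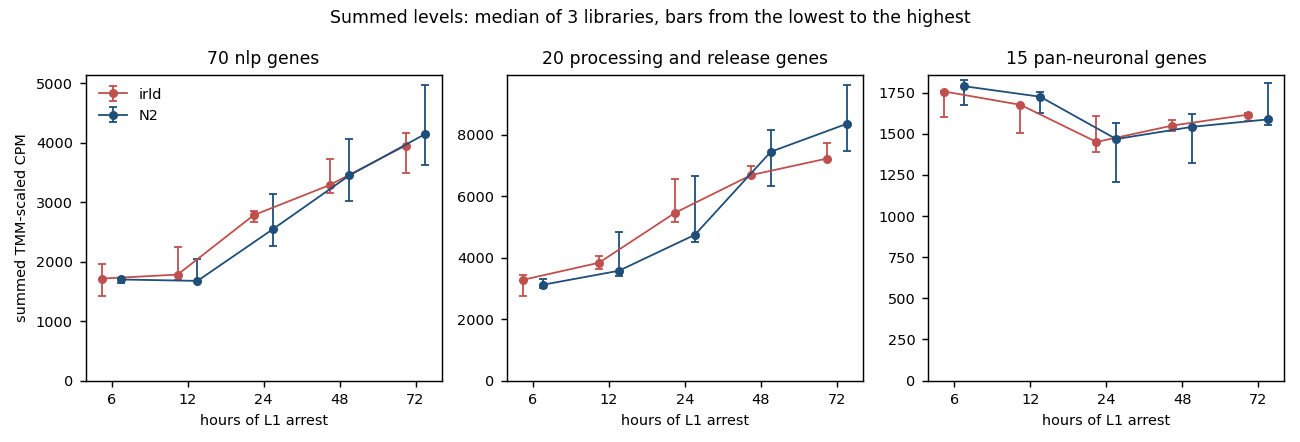
Summed TMM-scaled CPM of the 70 nlp genes, 20 processing and release genes and 15 pan-neuronal genes against hours of arrest, as the median of 3 libraries with bars from the lowest to the highest, irld left of N2. The nlp and processing sums climb from 12 to 72 h in both strains on this TMM scale, while the pan-neuronal sum stays between 1207 and 1829 CPM.

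Markers of other tissues moved in several directions, where 46.6% of all tested genes in irld and 51.1% in N2 were called with TMM. Intestine markers had 1 of 7 higher and 3 lower in both strains, and their summed level ran from 1688 to 2417 CPM at 72 h and 2330 to 3653 at 6 h in irld, and from 1930 to 2160 and 2822 to 3114 in N2. Pharynx markers had 5 of 5 lower in irld and 2 of 5 in N2 (5 with library size alone), with sums of 657 to 1055 and 2480 to 4123 CPM in irld, and 408 to 2190 and 2413 to 3725 CPM in N2, and their irld 24 h libraries spanned 1158 to 5260 CPM. Body muscle markers had 1 of 5 higher and 1 lower in both strains (0 and 4 with library size alone, with medians of -0.80 in irld and -0.94 in N2), with sums of 14086 to 18785 and 9653 to 14598 CPM in irld, and 15485 to 17254 and 9463 to 14681 CPM in N2. Of 4 tested hypodermis markers, 0 were higher and 2 lower in irld, and 0 and 1 in N2 (3 lower in each with library size alone), with sums of 113 to 149 and 110 to 143 CPM in irld, and 109 to 127 and 133 to 136 CPM in N2, and of the other two, rol-6 had 164 counts and nhr-73 had 24 over 30 libraries. Of 5 germline markers, 0 were higher and 1 lower in both strains, with sums of 21.1 to 26.4 and 35.8 to 54.8 CPM in irld, and 14.6 to 44.4 and 35.3 to 49.6 CPM in N2. The part of tissue composition in the nlp changes was not tested.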

How the data were processed

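Whole-larva polyadenylated RNA of 30 libraries was analysed from the deposited raw counts per gene, which the authors made with Bowtie 1.2.2 as aligner and HTSeq 0.11.2 as counter, both named in the submitters' processing notes. ERCC spike-in was added according to total RNA, per the labels' protocols. Between 35.3% and 40.7% of reads were not aligned, and ERCC took 0.304% to 3.88% of the counted reads; these and the HTSeq categories were left out of library sizes. Each library's own file held the same counts as the series table.

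Counts were analysed with edgeR 4.0.16 in R 4.3.3: TMM factors (0.781 to 1.24), filterByExpr by group, robust quasi-likelihood tests (1 coefficient for each of 10 groups, 30 libraries), and Benjamini-Hochberg adjustment over 15508 genes at 0.05. The common biological coefficient of variation was 0.256. Replicates are biological per the labels. Exon lengths and coordinates are from Ensembl 115 (WBcel235). Tested on simulated counts, the fit recovered the direction and size of set rises. The simulation used 1 dispersion for all genes and independent libraries. Falls and the differences in head and tail balance between libraries were not simulated. DESeq2 1.42.0, limma 3.58.1 (voom), other scalings, filters, a replicate block and left-out libraries were alternatives.

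The members and gene lists were chosen with earlier results of these data known. Named nlp genes are those with a known role, the 10 highest per kb, the 10 with the largest rises and falls called in N2, 5 of each in irld, and the 5 smallest p in each strain test. For each other list they are up to 4 genes with the smallest p in N2. Same-numbered libraries deviated together in part, with a median correlation of 0.18 against -0.114 for different numbers, but not throughout. Replicate numbers were not used as pairs in the main fit, and the replicate block was run as an alternative. No sequences are shown.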

Additional observations from a re-analysis of the deposited data

How the results depend on the processing

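The change at 72 h against 6 h was called for 27 to 42 nlp genes in irld and 36 to 47 in N2 when replicates were left out, and for 32 to 47 and 37 to 51 under all other alternatives but ERCC scaling. Under ERCC scaling the calls at 12, 24, 48 and 72 h were 0, 2, 7 and 6 in irld and 0, 4, 3 and 6 in N2, all lower except 1 in irld and 3 in N2 at 72 h, and 0 between 24 and 72 h in both. With ERCC scaling the irld change at 72 h turned negative for nlp-1 (-0.74), nlp-3 (-0.14), nlp-8 (-0.041), nlp-13 (-0.55), nlp-14 (-0.84), nlp-21 (-0.69), nlp-40 (-0.89), nlp-50 (-0.27), nlp-55 (-0.23), nlp-56 (-0.18), nlp-61 (-0.72) and nlp-99 (-0.26); the cause was not tested.

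The 12 h count in irld, 1 as reported, was 5 with upper quartile scaling (4 higher), 3 with DESeq2's size factors in edgeR (2 higher), 4 with DESeq2 (3 higher), 2 with limma-voom, 0 with only the groups compared, 2 with the replicate block, 5 with the head-minus-tail balance as a term (4 higher) and 0 to 6 with replicates left out. In N2 it was 10 without the 3 libraries that stood apart, 0 to 5 with replicates left out, and 1, lower, without all libraries numbered 1. The 24 to 72 h count was 4 in irld and 7 in N2 with library size alone, 4 and 8 without a low-count filter, 15 and 32 with the balance as a term, and 1 to 9 and 0 to 20 with replicates left out; in N2 it was 4 with only the groups compared. The 24 h counts were 12 to 36 in irld and 20 to 34 in N2, and the 48 h counts 25 to 39 and 32 to 43, with replicates left out. Strain comparisons gave 0 in all. Same-numbered libraries had correlations of deviations from -0.523 to 0.728 over 135 pairs (median 0.18), 90 of them over 0.1. Differently numbered libraries had -0.661 to 0.684 over 270 pairs (median -0.114), 65 of them over 0.1. Of the 30 libraries, 20 correlated best with their own number. The replicate block gave 41 and 49 calls at 72 h in irld and N2. For single genes, 1383 recomputed values kept their direction and side of the threshold, 97 lost the call and 20 gained it. A further 12, all on ERCC scaling, reversed direction.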
